A study of Homo sapiens with 12 samples.

Results

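The departure of a double Musashi knockdown from additivity was measured by RNA sequencing in MIA PaCa-2 cells, a long-established human pancreatic carcinoma line. Log2 changes against control are taken for each knockdown, those of the Msi1 and Msi2 single knockdowns are summed, and the sum is subtracted from the change of the double, so a positive value means a level above the one that the 2 single changes add up to. On the CPM scale (counts per 1e6 of the scaled library total) additivity means that the single knockdowns' fold changes multiply. All 12 libraries entered the contrast, and 15021 of the 24528 genes in the table passed a low-count filter and were tested. The groups, of 3 libraries each, were double knockdown (lentiviral shRNAs against Musashi1, with a GFP tag, and against Musashi2, with a Tomato Red tag, in cells positive for both), Msi1 knockdown (the first virus alone), Msi2 knockdown (the second alone) and control (a scrambled shRNA). Every group, control included, was infected for 72 hours, sorted on fluorescence and processed from 200 ng of total RNA. Neither the tag nor the gate of the control cells is given in the sources used here. The double-knockdown cells carried both viruses and both tags, so an effect of that double load and an effect of the joint loss of the Musashi proteins cannot be told apart. Nothing states that replicates came from separate cultures, and the p-values then cover only the spread among these libraries, which may be technical.

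Musashi-1 and Musashi-2 are closely related RNA-binding proteins that recognise short motifs, mostly in 3′ untranslated regions, and raise or lower the translation and stability of the bound mRNAs. Related proteins that share targets can cover for each other, in which case losing both changes an mRNA more than the single losses add up to. They can also act at the same step, in which case the second loss adds little to the first. Both kinds of departure are defined against additivity on a stated scale, here log2.

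The sequences that open the account are the promoters of the genes with the lowest and the highest departures, which show what letters stand upstream of the genes that the rest of the text describes. They are RefSeq windows of 300 bases around the gene start, build GRCh38.p14, all on the plus strand, printed 5′ to 3′. Capitals mark matches on either strand to TTCNNNGAA (a core bound by STAT factors), to GAAANNGAA (the core of an interferon-stimulated response element) or to TATAAA (the TATA box). CFB and CD274 lay lowest, at chr6:31945845-31946144 and chr9:5450292-5450591. FOS and DHRS2 lay highest, at chr14:75278578-75278877 and chr14:23629865-23630164.
CFB: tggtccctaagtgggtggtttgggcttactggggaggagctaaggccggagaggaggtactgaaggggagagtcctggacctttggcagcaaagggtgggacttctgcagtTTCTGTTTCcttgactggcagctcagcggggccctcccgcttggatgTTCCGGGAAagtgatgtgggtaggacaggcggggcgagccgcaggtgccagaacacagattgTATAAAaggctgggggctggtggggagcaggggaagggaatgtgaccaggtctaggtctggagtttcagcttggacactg
CD274: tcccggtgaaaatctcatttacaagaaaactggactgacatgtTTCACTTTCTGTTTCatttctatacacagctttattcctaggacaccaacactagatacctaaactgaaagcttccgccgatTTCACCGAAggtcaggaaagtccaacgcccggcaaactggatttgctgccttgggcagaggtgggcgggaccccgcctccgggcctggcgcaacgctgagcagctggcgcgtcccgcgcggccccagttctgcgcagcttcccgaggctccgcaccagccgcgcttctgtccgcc
FOS: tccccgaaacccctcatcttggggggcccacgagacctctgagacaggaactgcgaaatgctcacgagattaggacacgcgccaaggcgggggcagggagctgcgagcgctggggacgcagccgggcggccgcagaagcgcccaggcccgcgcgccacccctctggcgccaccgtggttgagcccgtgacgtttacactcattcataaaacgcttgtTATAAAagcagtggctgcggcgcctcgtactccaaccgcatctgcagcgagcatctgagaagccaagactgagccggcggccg
DHRS2: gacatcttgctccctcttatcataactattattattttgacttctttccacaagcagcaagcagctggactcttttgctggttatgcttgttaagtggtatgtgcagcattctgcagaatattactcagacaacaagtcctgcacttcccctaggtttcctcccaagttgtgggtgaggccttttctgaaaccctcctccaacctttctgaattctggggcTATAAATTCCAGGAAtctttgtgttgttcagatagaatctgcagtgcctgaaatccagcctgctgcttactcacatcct

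The CFB window held 1 STAT match, 1 interferon element and 1 TATA box, and the CD274 window held 1 STAT match and 2 interferon elements that overlap each other. The FOS window held 1 TATA box, and the DHRS2 window held 1 TATA box directly followed by 1 STAT match. Of 35116 RefSeq promoter windows, 7.66% held the STAT letters, 8.11% the interferon element and 11.5% the TATA box. These are shares of single windows. The sets that follow are counted in genes, which can have several windows each, so the measures are not alike. Among the 12 genes with the lowest departures named further on, 8 had windows (12 in all), of which 4 genes held a STAT match, 2 an interferon element and 4 a TATA box. Among the 12 with the highest departures, 10 had windows (14 in all), of which 1 gene held a STAT match, none an interferon element and 4 a TATA box. No gene of either set matched TGACGTCA (the cyclic AMP element, in 1.85% of windows) or GGGNNTTNC (a kappa B core, 16.2%), and 1 of the highest matched TGANTCA (an AP-1 site, 7.71%). A match is a description of these letters and says nothing of whether a factor binds them.

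Library totals, in units of 1e6 estimated counts, ran from 10.95 to 56.12, and every pair of replicates differed by more than sampling noise. The strongest shared variation within groups, called the library trend here, held 54.5% of the within-group variance. The double-knockdown libraries scored -1.54, -1.32 and -1.05 on it, against 0.10, 1.36 and 1.38 for Msi1 knockdown, 0.24, 1.06 and -0.39 for Msi2 knockdown and -0.19, 0.70 and -0.36 in control. They stood below each of the other 9 libraries, and the trend score itself had a departure from additivity of -2.50. The slope of level on transcript length moved the same way, averaging -0.0572 for double-knockdown libraries, 0.00861 for Msi1, 0.0286 for Msi2 and 0.02 for control libraries, a departure of -0.0744. Trend and double knockdown thus move together, and counts and departures are therefore also given from a fit that holds the trend as a covariate. The gene weights of the trend come from variation within groups, but the scores keep differences between groups. A fit with the trend can therefore also take out differences that belong to the double knockdown.

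MSI1 was measured at 2.01, 1.45 and 1.66 CPM in double-knockdown libraries, 1.62, 1.94 and 1.96 CPM in Msi1-knockdown libraries, 7.0, 5.37 and 6.04 CPM in Msi2-knockdown libraries and 4.93, 4.53 and 4.13 CPM in control libraries. Its departure of -0.50 ± 0.21 (log2 ± standard error) missed the threshold, with an adjusted p of 0.0655 in the quasi-likelihood test of edgeR after Benjamini-Hochberg correction. Leaving out double-knockdown replicate 1, Msi1 replicate 1 or Msi2 replicate 2 brought it past the threshold, at -0.65, -0.58 and -0.60 (adjusted p = 0.0322, 0.0357 and 0.0350). MSI2 was measured at 11.1, 12.2 and 12 CPM in double-knockdown libraries, 52.1, 56.5 and 53.4 CPM in Msi1-knockdown libraries, 15.1, 17.3 and 12.6 CPM in Msi2-knockdown libraries and 81.2, 80.7 and 86.3 CPM in control libraries. Both genes were low where their shRNA was used, and MSI2 was also lower in the Msi1 knockdown than in control, a change of -0.61 log2. MSI1 was higher in the Msi2 knockdown than in control, a change of 0.41 log2 (adjusted p = 0.0244, edgeR). Its mean was 1.71 CPM in the double knockdown and 1.84 CPM in the Msi1 knockdown. The departure of MSI2 was 0.26 ± 0.12 (adjusted p = 0.0925), and it passed at 0.37 (adjusted p = 0.0146) without Msi2 replicate 2 and at 0.54 (adjusted p = 0.0254) with the trend as covariate. The additive level of MSI2 was 9.77 CPM, against the observed 11.8 ± 0.62 CPM in the double knockdown (SD, n = 3).

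Departures were common and mostly small. At an adjusted p below 0.05, 6058 genes departed from additivity, 40.3% of those tested: 3192 genes (21.3%) lay above it and 2866 (19.1%) below it. The median size of a called departure was 0.466 log2, and 3352 of the called genes (55.3%) departed by less than 0.5 log2. The median standard error of a departure was 0.120 log2. Of all genes tested, 5515 (36.7%) had a 95% interval that stayed within 0.5 log2 of additivity, 725 of them called, and 4173 (27.8%) were neither called nor bounded in this way, so neither a departure nor additivity was detectable for them at this depth and spread. With the trend as covariate 648 genes were called, 206 above and 442 below additivity, 7607 were bounded within 0.5 log2, and the median standard error was 0.142. Of these 648, 540 were also called without it, all with the same sign. Of the 6058 calls made without it, 83.8% kept their sign with it and 984 changed sign.

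Large departures lay mostly below additivity. A departure of at least 1 log2 was called for 110 genes above additivity (0.732% of those tested) and 531 below (3.54%). Many of these were weakly expressed: at a mean of 10 CPM or more in the highest group, which 9763 genes reached, the counts were 19 above and 137 below. Leaving out Msi2 replicate 2 or Msi1 replicate 2 lowered the count below additivity to 310 and 344, and Msi2 replicate 2 lowered the count in both directions together to 394, against 641 with all libraries. With the trend as covariate 25 genes lay at least 1 log2 above and 52 at least 1 log2 below. The scale of additivity made little difference to direction: on linear CPM, 1 of the 6058 called genes had the opposite sign.

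**Figure D1:**
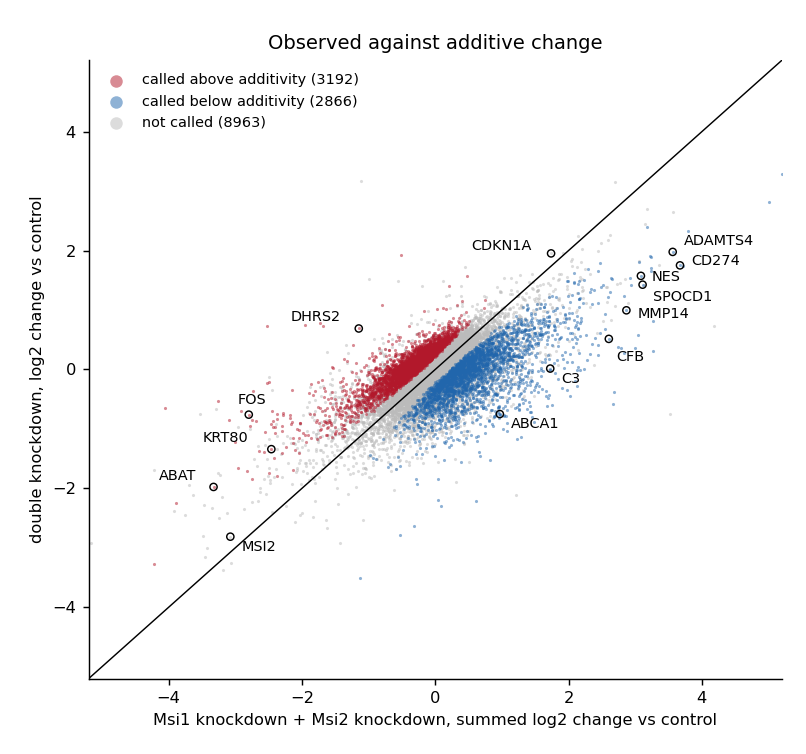
Observed log2 change of the double knockdown against control (vertical) and the sum of the single knockdowns' log2 changes (horizontal), 1 point per tested gene, with the line of additivity. Genes called above it (3192, red) and below it (2866, blue) run along both sides of the line, most within 1 log2, and 9 genes lie outside the axes.

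In 2176 genes (14.5%) all 3 double-knockdown libraries lay above each of the other 9, and in 1500 (9.99%) they lay below. Among the genes called above additivity 1138 (35.7%) had the double knockdown above all other libraries, and among those called below it 786 (27.4%) had it below all. In most called genes, then, the double-knockdown libraries did not stand outside the other 9.

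The 12 lowest departures included the complement genes CFB, C1R and C3. Complement is a cascade of serum proteins, here transcribed in tumour cells, in which C1R and C1S are the proteases of the first component, C3 is the central protein and CFB is a protease of the alternative pathway. CFB (gene ID 629) was measured at 9.03, 7.58 and 10.5 CPM in double-knockdown libraries, 14.3, 17.9 and 17.5 CPM in Msi1-knockdown libraries, 14.2, 16.5 and 13 CPM in Msi2-knockdown libraries and 6.5, 6.9 and 4.76 CPM in control libraries. The single knockdowns lay above every control library, and the double knockdown lay below every single-knockdown library and above every control library. The additive level was 39.9 CPM, and the departure was -2.09 ± 0.19 log2 (adjusted p = 5.82e-07, edgeR), the lowest under the naming rule. With the trend as covariate it was -1.46.

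C3 (gene ID 718) was measured at 6.43, 5.71 and 6.45 CPM in double-knockdown libraries, 11, 12.8 and 13.9 CPM in Msi1-knockdown libraries, 9.39, 11.3 and 9.11 CPM in Msi2-knockdown libraries and 5.66, 6.57 and 6.29 CPM in control libraries. Each single knockdown lay above control in every library, while the double knockdown overlapped control, with changes of 0.02 log2 for the double, 1.03 for the Msi1 and 0.70 for the Msi2 knockdown. The departure of C3 was -1.71 ± 0.16 (adjusted p = 5.73e-07), and -1.21 with the trend as covariate. C1R was measured at 17.8, 14.6 and 18.3 CPM in double-knockdown libraries, 30.8, 39.8 and 38.1 CPM in Msi1-knockdown libraries, 21.6, 22.9 and 22.5 CPM in Msi2-knockdown libraries and 13.7, 15.4 and 12.8 CPM in control libraries. Its departure was -1.76 ± 0.14 (adjusted p = 3.61e-07), and -1.38 with the covariate. C1S, named after its values were seen because it pairs with C1R, had a departure of -1.48 ± 0.13 and of -1.0 with the covariate.

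CD274 encodes PD-L1, the ligand of the T-cell checkpoint receptor PD-1. CD274 (gene ID 29126) was measured at 7.86, 9.22 and 8.27 CPM in double-knockdown libraries, 11.1, 13.6 and 14.2 CPM in Msi1-knockdown libraries, 6.2, 6.43 and 5.93 CPM in Msi2-knockdown libraries and 2.33, 2.5 and 2.97 CPM in control libraries. All knockdowns lay above control, and the double knockdown lay between the Msi1 and Msi2 knockdowns without overlap. The departure was -1.92 ± 0.17 (adjusted p = 4.20e-07) and -1.54 with the trend as covariate. SPOCD1, whose mouse counterpart takes part in piRNA-directed DNA methylation, kept the same order, with 13.3 ± 1.06 CPM in double-knockdown libraries, 31 ± 3.01 CPM in Msi1-knockdown libraries, 6.84 ± 1.14 CPM in Msi2-knockdown libraries and 4.67 ± 1.21 CPM in control libraries (SD, n = 3). Its departure was -1.68 ± 0.19, and -1.1 with the covariate. LIFR, a receptor subunit for the cytokine LIF, was measured at 70.6, 76.5 and 82.6 CPM in double-knockdown libraries, 126, 157 and 166 CPM in Msi1-knockdown libraries, 79.4, 93.6 and 80.4 CPM in Msi2-knockdown libraries and 46.8, 59.7 and 55.1 CPM in control libraries. Its departure was -1.62 ± 0.15 (adjusted p = 2.03e-06), and -1.05 with the covariate.

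**Figure D2:**
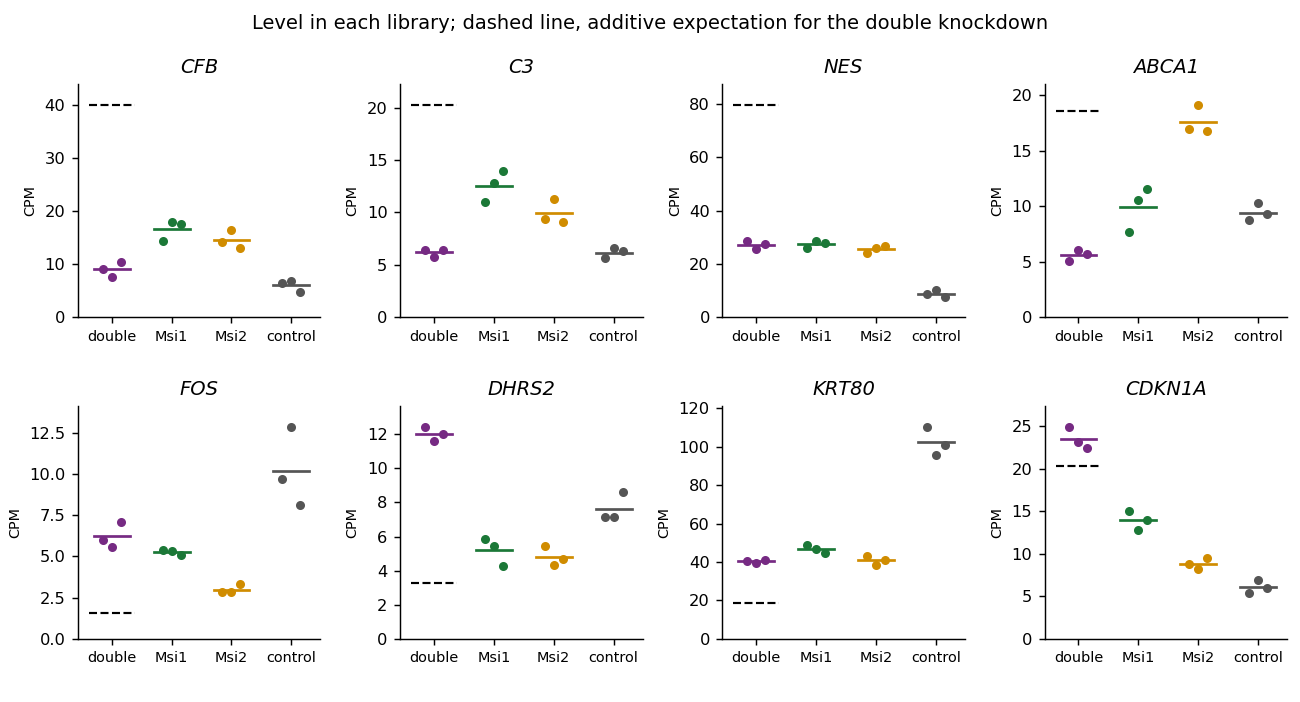
Level in each library (points, CPM, linear axes from 0) and group mean (bars) for 8 genes in the double knockdown, Msi1 knockdown, Msi2 knockdown and control, with the additive level for the double knockdown dashed. CFB, C3, NES and ABCA1 lie below the dashed line in all 3 double-knockdown libraries, FOS, DHRS2 and KRT80 above it, and CDKN1A near it.

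The matrix and surface genes MMP14 and MUC1 also lay below additivity. MMP14, a membrane-bound protease of the extracellular matrix, averaged 14.9 ± 0.321 CPM in double-knockdown libraries, 24.6 ± 1.6 CPM in Msi1-knockdown libraries, 16.5 ± 3.06 CPM in Msi2-knockdown libraries and 7.5 ± 1.8 CPM in control libraries, a departure of -1.87 ± 0.20 (adjusted p = 1.40e-05). MUC1, a membrane mucin of glandular epithelium, was measured at 19.4, 15.7 and 22.1 CPM in double-knockdown libraries, 28.8, 35.6 and 35.8 CPM in Msi1-knockdown libraries, 31.7, 34.3 and 31.1 CPM in Msi2-knockdown libraries and 17.2, 18.8 and 16.8 CPM in control libraries. As for C3, the single knockdowns lay above control while the double knockdown overlapped it. The departure of MUC1 was -1.68 ± 0.15 (adjusted p = 5.62e-07). With the trend as covariate the departures were -1.22 for MMP14 and -1.25 for MUC1.

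ABCA1, the transporter that exports cholesterol to lipoproteins, was measured at 5.08, 6.06 and 5.73 CPM in double-knockdown libraries, 7.68, 10.5 and 11.6 CPM in Msi1-knockdown libraries, 16.9, 19.1 and 16.8 CPM in Msi2-knockdown libraries and 8.72, 10.3 and 9.26 CPM in control libraries. The double knockdown lay below all 9 other libraries although neither single knockdown averaged below control. The departure was -1.72 ± 0.17 (adjusted p = 1.63e-06), and -1.14 with the covariate. The amino acid and zinc transporter genes SLC7A11 and SLC30A1 also had the double knockdown below all other libraries, at -0.92 ± 0.14 and -0.58 ± 0.11. Neither was called with the covariate, at -0.45 (adjusted p = 0.081) and -0.25 (adjusted p = 0.298).

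In other genes with low departures each single knockdown lay above control and the double knockdown was not much higher than either. ADAMTS4, a protease that cleaves aggrecan, was measured at 55.4, 53.1 and 53.8 CPM in double-knockdown libraries, 41.2, 52.2 and 52 CPM in Msi1-knockdown libraries, 45.5, 49.7 and 42.9 CPM in Msi2-knockdown libraries and 11.7, 15.2 and 14.9 CPM in control libraries. All knockdowns were high and close together, control was low, and the double knockdown lay slightly above the others. Its departure was -1.59 ± 0.14 (adjusted p = 4.24e-07), and -1.12 with the covariate. NES, the intermediate filament nestin, was measured at 28.5, 25.6 and 27.3 CPM in double-knockdown libraries, 25.8, 28.6 and 27.9 CPM in Msi1-knockdown libraries, 24.2, 26.1 and 26.9 CPM in Msi2-knockdown libraries and 8.83, 10.3 and 7.46 CPM in control libraries. The libraries of all knockdowns overlapped, and the departure of NES was -1.51 ± 0.12 (adjusted p = 3.61e-07) and -1.36 with the covariate. CYR61, a matrix-associated YAP target, departed by -1.05 ± 0.11, with the libraries of all knockdowns overlapping. CTGF, another such target, departed by -1.34 ± 0.15, with the double knockdown below every Msi1-knockdown library. SLC2A3, a glucose transporter, departed by -1.38 ± 0.12, with the double knockdown above every Msi1-knockdown library and below every Msi2-knockdown library. The histone demethylase gene KDM6B had 37.5 ± 1.82 CPM in double-knockdown libraries, 41.3 ± 2.5 CPM in Msi1-knockdown libraries, 34.9 ± 2.45 CPM in Msi2-knockdown libraries and 22 ± 0.609 CPM in control libraries, a departure of -0.81 ± 0.10 that stayed called with the covariate, at -0.67.

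The remaining low departures are of genes whose reads are uncertain. PFN1P2 is a pseudogene of the actin-binding protein profilin 1, and reads it shares with profilin genes could have been split by the authors' counting. Its departure was -1.82 ± 0.48 (adjusted p = 0.0168), and -0.20 with the trend as covariate. RGMB-AS1 is an antisense RNA, and without stated strand information its reads cannot be told apart from those of its partner. It averaged 7.01 ± 0.661 CPM in double-knockdown libraries, 15.7 ± 2.66 CPM in Msi1-knockdown libraries, 8.04 ± 1.4 CPM in Msi2-knockdown libraries and 5.7 ± 0.976 CPM in control libraries, a departure of -1.66 ± 0.21, and -0.79 with the covariate.

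FOS, a subunit of the AP-1 transcription factor that is switched on quickly by growth signals, had the highest departure under the naming rule. FOS (gene ID 2353) was measured at 5.98, 5.55 and 7.07 CPM in double-knockdown libraries, 5.4, 5.34 and 5.08 CPM in Msi1-knockdown libraries, 2.81, 2.82 and 3.31 CPM in Msi2-knockdown libraries and 9.67, 12.8 and 8.09 CPM in control libraries. All knockdowns lay below control, and the double knockdown lay above every library of either single knockdown. The additive level was 1.54 CPM, and the departure was 2.04 ± 0.19 log2 (adjusted p = 8.70e-07, edgeR), and 2.3 with the covariate. Of 19 immediate early genes, FOS among them, 5 were called above additivity and 7 below. With the covariate FOS was the only one called above and 5 were called below. EGR3 had 11.2 ± 0.444 CPM in double-knockdown libraries, 14.9 ± 0.792 CPM in Msi1-knockdown libraries, 3.85 ± 0.0561 CPM in Msi2-knockdown libraries and 3.2 ± 0.0914 CPM in control libraries, a departure of -0.68 ± 0.13, and the AP-1 gene FOSL2 departed by -0.39 ± 0.08. Both stayed called below with the covariate, at -0.82 and -0.40.

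DHRS2, a dehydrogenase of the short-chain family, had a double-knockdown level beyond all other libraries. DHRS2 (gene ID 10202) was measured at 12.4, 11.6 and 12 CPM in double-knockdown libraries, 5.84, 5.44 and 4.28 CPM in Msi1-knockdown libraries, 5.45, 4.33 and 4.69 CPM in Msi2-knockdown libraries and 7.15, 7.13 and 8.63 CPM in control libraries. The single knockdowns averaged below control and the double knockdown lay above all 9 other libraries, a departure of 1.84 ± 0.16 (adjusted p = 4.51e-07), and 1.5 with the covariate. S100A2, a calcium-binding protein, was measured at 22.2, 20.4 and 19.1 CPM in double-knockdown libraries, 14.5, 10.8 and 10.2 CPM in Msi1-knockdown libraries, 10.6, 9.1 and 10.3 CPM in Msi2-knockdown libraries and 11.5, 12.9 and 13.4 CPM in control libraries. Here too the double knockdown stood above all other libraries. Its departure was 1.12 ± 0.16 (adjusted p = 4.40e-05), and 0.65 (adjusted p = 0.0285) with the covariate. OASL, an interferon-induced gene, had 45.1 ± 1.8 CPM in double-knockdown libraries, 27.6 ± 0.452 CPM in Msi1-knockdown libraries, 33 ± 1.16 CPM in Msi2-knockdown libraries and 38.3 ± 2.38 CPM in control libraries, a departure of 0.93 ± 0.09 and of 0.78 with the covariate.

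The other high departures were mostly genes lowered by each knockdown and not lowered much further by both. KRT80, an epithelial keratin, was measured at 40.7, 39.7 and 41 CPM in double-knockdown libraries, 48.7, 46.6 and 44.6 CPM in Msi1-knockdown libraries, 43.2, 38.6 and 41 CPM in Msi2-knockdown libraries and 110.3, 95.7 and 101 CPM in control libraries. The double knockdown overlapped the Msi2 knockdown, and both lay below every control library. The departure of KRT80 was 1.12 ± 0.09 (adjusted p = 3.61e-07), and 0.92 with the covariate. ABAT, which breaks down the neurotransmitter GABA, was measured at 2.5, 2.9 and 2.59 CPM in double-knockdown libraries, 3.07, 2.9 and 3.49 CPM in Msi1-knockdown libraries, 3.54, 3.67 and 3.27 CPM in Msi2-knockdown libraries and 13.4, 8.08 and 9.44 CPM in control libraries. It departed by 1.35 ± 0.23, and by 1.14 (adjusted p = 0.0799, no longer called) with the covariate. EIF4EBP2, which holds back translation by binding the cap-binding factor eIF4E, averaged 115 ± 1.55 CPM in double-knockdown libraries, 87.7 ± 3.89 CPM in Msi1-knockdown libraries, 115 ± 8.75 CPM in Msi2-knockdown libraries and 193 ± 25.1 CPM in control libraries, a departure of 1.14 ± 0.11 (adjusted p = 1.51e-06). TP53INP1, a p53-induced stress gene, averaged 7.45 ± 0.714 CPM in double-knockdown libraries, 7.25 ± 0.37 CPM in Msi1-knockdown libraries, 11.6 ± 0.361 CPM in Msi2-knockdown libraries and 24.4 ± 3.18 CPM in control libraries, a departure of 1.11 ± 0.14. With the covariate these were 0.76 for EIF4EBP2 and 0.91 for TP53INP1.

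H19, an imprinted long noncoding RNA, was measured at 17.8, 15.7 and 18.1 CPM in double-knockdown libraries, 9.0, 8.56 and 7.77 CPM in Msi1-knockdown libraries, 19, 14.6 and 16.9 CPM in Msi2-knockdown libraries and 22.7, 18.2 and 23.5 CPM in control libraries. It was lowest in the Msi1 knockdown, and the double knockdown overlapped the Msi2 knockdown instead, a departure of 1.36 ± 0.15 (adjusted p = 4.41e-06) and of 0.93 with the covariate. PDXP, a phosphatase of vitamin B6, departed by 1.1 ± 0.15 and ASF1B, a histone chaperone, by 1.09 ± 0.13. Both stayed called with the covariate, at 0.68 and 0.60. HSPA1A and HSPA1B, near-identical genes for the stress-induced HSP70 between which shared reads could have been split, departed by 1.2 ± 0.16 and 1.1 ± 0.14. Neither was called with the covariate, at 0.84 (adjusted p = 0.162) and 0.84 (adjusted p = 0.0675). Of the 12 highest and 12 lowest genes, 9 and 11 were called with the trend as covariate, and ABAT, HSPA1A, HSPA1B and PFN1P2 were not. All 24 were called in each of the 12 fits that left out 1 library, as the rule for naming them required.

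**Figure D3:**
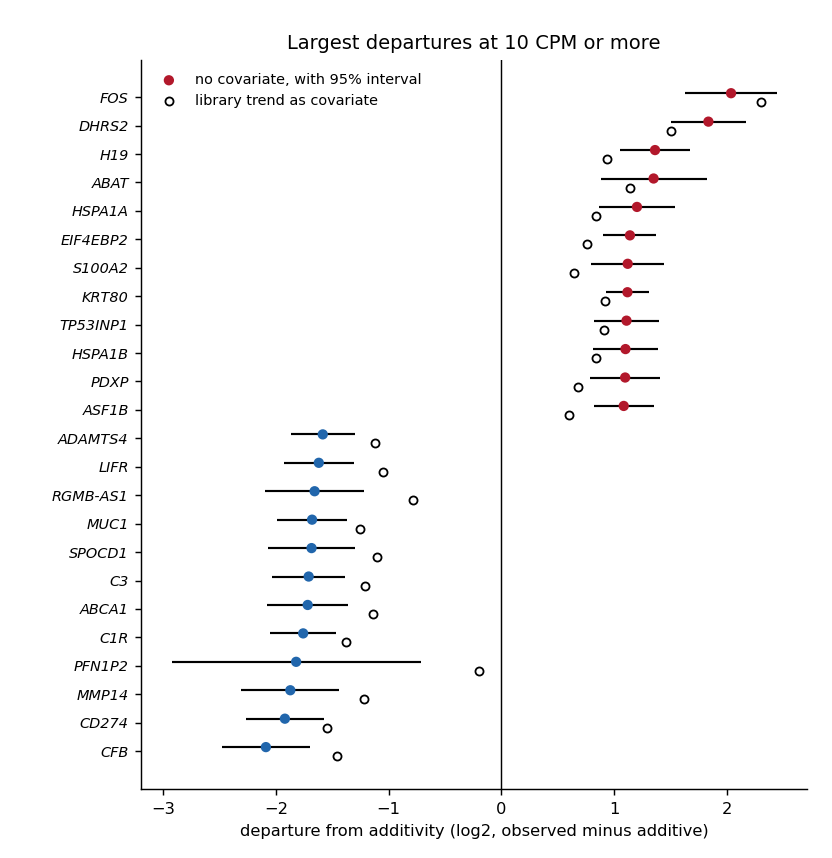
Departure from additivity (horizontal, log2) of the 12 highest and 12 lowest genes under the naming rule, with 95% interval (filled points and lines) and with the library trend as covariate (open points). FOS lies highest at 2.04 and CFB lowest at -2.09, and the open point of PFN1P2 lies nearest to 0.

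Gene lists were described by the number of members called and by their median departure. Over all tested genes 21.3% were called above and 19.1% below additivity, with a median departure of 0.00821 log2. With the trend as covariate 206 of the 15021 tested genes were called above and 442 below, and list counts from that fit stand beside these. No list was tested as a set. The share of genes called rose with level, as given further on, and the shares over all genes were not matched to the level of a list. Several lists of growth and protein production had larger shares called above additivity than all genes. Of 47 cytosolic ribosomal protein genes, 42 were called above and none below, with a median of 0.39. RPL14 had 542 ± 18.2 CPM in double-knockdown libraries, 294 ± 27.5 CPM in Msi1-knockdown libraries, 531 ± 57 CPM in Msi2-knockdown libraries and 544 ± 26.2 CPM in control libraries, a departure of 0.92 ± 0.12, and RPL3 departed by 0.56 ± 0.12. This count moved with single libraries: leaving out 1 gave 15 to 47 called above, with 15 without Msi1 replicate 3, 19 without Msi1 replicate 2, 20 without double-knockdown replicate 1 or Msi2 replicate 2, and 21 without Msi2 replicate 1, control replicate 1 or control replicate 3. With the trend as covariate the median was -0.07 and 1 gene, RPL14, was called above, at 0.49. RPL3 was not called with it, at 0.14 (adjusted p = 0.452, edgeR).

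Genes of the cell cycle also lay above additivity. Of 40 S phase and replication genes 28 were called above and none below (median 0.36, 22 to 34 called with 1 library left out), and of 40 G2/M and mitosis genes 30 were called above and none below (median 0.35, 24 to 31 called). MCM3, a subunit of the replicative helicase, was measured at 146, 137 and 138 CPM in double-knockdown libraries, 112, 104 and 106 CPM in Msi1-knockdown libraries, 128, 125 and 128 CPM in Msi2-knockdown libraries and 157, 153 and 157 CPM in control libraries, a departure of 0.68 ± 0.08 (adjusted p = 8.02e-06). FEN1, a nuclease of DNA replication, departed by 0.85 ± 0.10, and GINS2, of the complex that activates the MCM helicase, by 0.83 ± 0.11 with the double knockdown above all other libraries. FOXM1, a transcription factor of the G2/M programme, was measured at 158, 147 and 145 CPM in double-knockdown libraries, 121, 111 and 114 CPM in Msi1-knockdown libraries, 118, 112 and 119 CPM in Msi2-knockdown libraries and 159, 139.8 and 155 CPM in control libraries. The double knockdown overlapped control while each single knockdown lay below it, and the departure of FOXM1 was 0.76 ± 0.09 (adjusted p = 9.75e-06). With the covariate the list medians were 0.20 for S phase, where 4 were called above and 1 below, and 0.13 for G2/M, where 2 were called above. FOXM1, MCM3, FEN1 and GINS2 stayed called with it, at 0.51, 0.55, 0.51 and 0.54.

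Replication-dependent histones had the highest median of the 36 pathway lists, 1.01 over 12 tested genes, of which 6 were called above additivity. Their transcripts mostly lack poly(A) tails and occur in many similar copies, so their values are uncertain. HIST1H3H departed by 1.81 ± 0.26 and HIST1H2BK by 1.26 ± 0.19, at levels of 3.89 ± 0.32 CPM in double-knockdown libraries, 5.24 ± 0.577 CPM in Msi1-knockdown libraries, 2.25 ± 0.23 CPM in Msi2-knockdown libraries and 7.46 ± 1.5 CPM in control libraries for the second. HIST1H3H averaged 1.53 CPM in double-knockdown libraries, 1.07 in those of Msi1, 0.797 in those of Msi2 and 1.99 in control. Its counts were low, from 25 to 85 per library. With the covariate the list median was 0.53 and 1 gene, HIST1H3H, was called.

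Chaperone lists split by compartment. Of 18 cytosolic heat shock chaperones and cochaperones 14 were called above additivity and none below (median 0.50, 11 to 15 called with 1 library left out), including CHORDC1, an HSP90 cochaperone, at 0.49 ± 0.08. Of 24 endoplasmic reticulum chaperones and quality control genes 18 were called below and 1 above (median -0.49, 16 to 18 called below). HYOU1, a large HSP70 relative of the endoplasmic reticulum, was measured at 265, 246 and 261 CPM in double-knockdown libraries, 280.2, 345 and 349 CPM in Msi1-knockdown libraries, 249, 262 and 243 CPM in Msi2-knockdown libraries and 152, 179 and 163 CPM in control libraries, a departure of -0.94 ± 0.11 (adjusted p = 1.08e-05). XBP1, a transcription factor of the unfolded protein response, departed by -0.78 ± 0.10, and EDEM1, which directs misfolded glycoproteins to degradation, by -0.76 ± 0.10. With the covariate the medians were 0.15 for the heat shock list, with 3 called above, and -0.20 for the endoplasmic reticulum list, with 5 called below, HYOU1, XBP1 and EDEM1 among them at -0.56, -0.67 and -0.47.

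**Figure D4:**
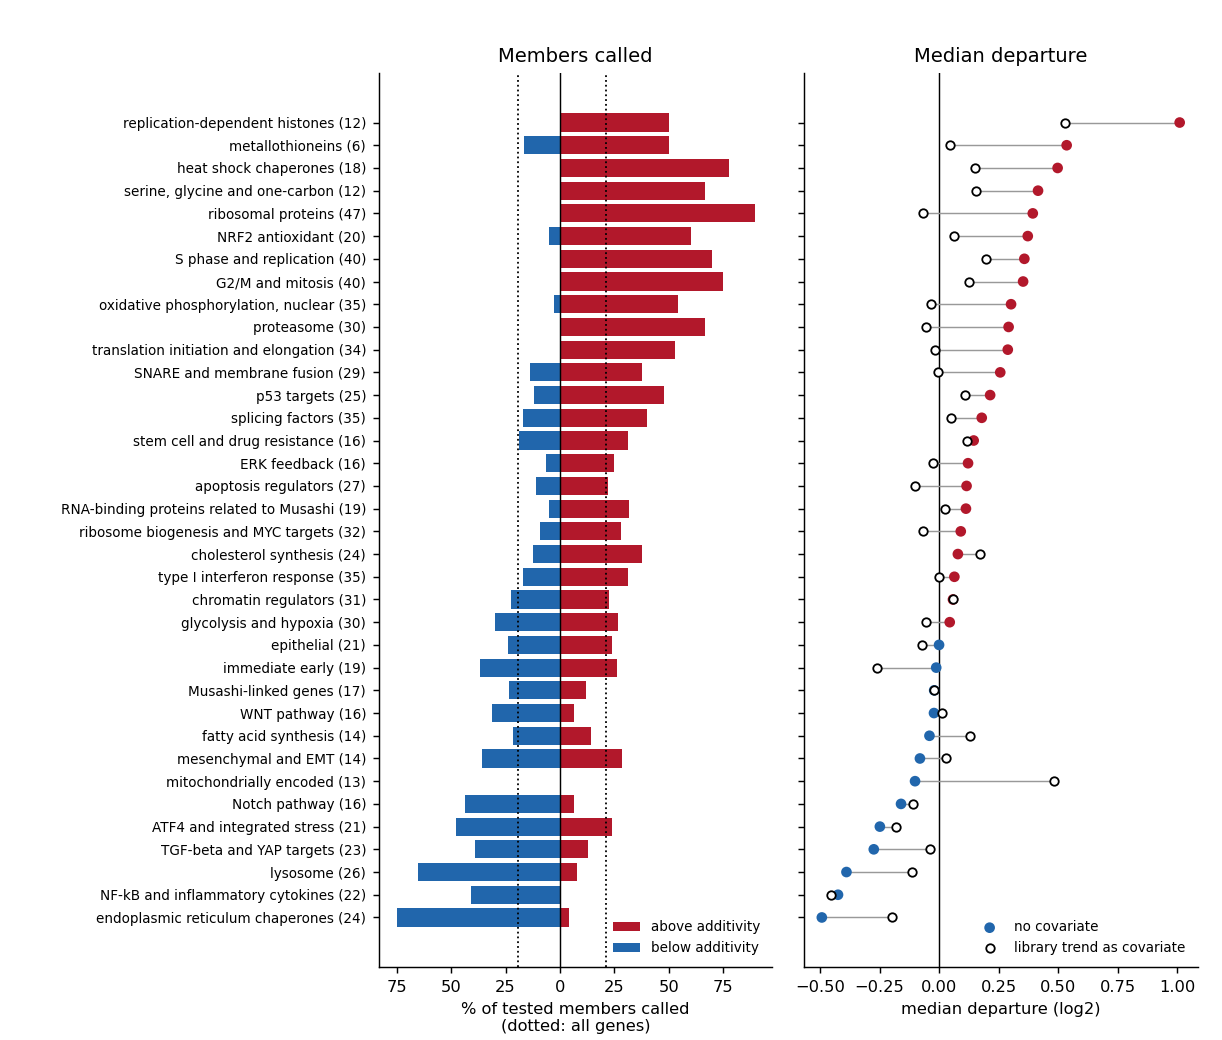
Left, share of tested members called above (red) or below (blue) additivity in 36 gene lists, with the shares over all genes dotted. Right, median departure (log2) without (filled) and with (open) the library trend as covariate. Ribosomal proteins have the largest share above, 89.4%, and an open point at -0.07, while the NF-kB list keeps its median below 0.

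NF-kB targets and inflammatory cytokines lay below additivity with and without the covariate. Of 22 tested, 9 were called below additivity and none above, with a median of -0.43 and 9 to 11 called below when 1 library was left out. With the covariate 8 were called below and none above, with a median of -0.45. TNFAIP3, a feedback inhibitor of NF-kB, was measured at 24.5, 23 and 21.5 CPM in double-knockdown libraries, 27.2, 28.8 and 32 CPM in Msi1-knockdown libraries, 17.4, 16.8 and 16.7 CPM in Msi2-knockdown libraries and 12.6, 12 and 12.9 CPM in control libraries. The double knockdown lay between the Msi1 and Msi2 knockdowns, above control, and the departure was -0.79 ± 0.11 (adjusted p = 3.26e-05). CXCL8, the chemokine interleukin-8, was measured at 233, 249.7 and 221 CPM in double-knockdown libraries, 186, 176 and 186 CPM in Msi1-knockdown libraries, 162, 174 and 191 CPM in Msi2-knockdown libraries and 73.6, 86.7 and 89.2 CPM in control libraries. Here the double knockdown was the highest group, yet below its additive level of 386 CPM, a departure of -0.73 ± 0.11 (adjusted p = 8.39e-05). BIRC3, an inhibitor of apoptosis, departed by -0.67 ± 0.09, and CFLAR, an NF-kB-induced blocker of caspase-8 taken from the apoptosis list, by -0.62 ± 0.08. With the covariate the departures were -0.73 for TNFAIP3, -0.82 for CXCL8, -0.76 for BIRC3 and -0.51 for CFLAR.

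Lysosomal genes lay below additivity, with 17 of 26 called below and 2 above (median -0.39, 15 to 19 called below with 1 library left out). CTSB, the protease cathepsin B, averaged 315 ± 17.9 CPM in double-knockdown libraries, 459 ± 43.2 CPM in Msi1-knockdown libraries, 347 ± 22 CPM in Msi2-knockdown libraries and 248 ± 15.8 CPM in control libraries, a departure of -1.02 ± 0.11, and CTSL departed by -0.66 ± 0.10. With the covariate 2 of the list were called below and its median was -0.11, with CTSB at -0.71 and CTSL at -0.44. Among TGF-beta and YAP targets 9 of 23 were called below and 3 above (median -0.27), and with the covariate 6 below and 2 above (median -0.04). In the Notch list 7 of 16 were called below and 1 above. NOTCH2, a receptor, departed by -0.85 ± 0.16 and ADAM17, a protease that releases membrane proteins, by -0.70 ± 0.10. With the covariate 1 of the Notch list was called below, and NOTCH2 was at -0.16 (adjusted p = 0.473). The ATF4 and integrated stress list had 10 of 21 called below and 5 above (median -0.25), and 6 below and none above with the covariate. SLC7A1 and SLC1A5, amino acid transporters, departed by -0.69 ± 0.11 and -0.61 ± 0.10. Neither was called with the covariate, at -0.28 (adjusted p = 0.0902) and -0.34 (adjusted p = 0.0692).

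Metabolic lists lay above additivity or were mixed. Serine, glycine and one-carbon enzymes had 8 of 12 called above and none below (median 0.42), with PHGDH, the entry enzyme of serine synthesis, at 0.76 ± 0.10 and 0.46 with the covariate, under which 2 of the list were called. Of 20 NRF2 antioxidant genes 12 were called above and 1, SLC7A11, below (median 0.37). With the covariate 1 was called above and none below (median 0.06). That gene was PGD, of the pentose phosphate pathway, at 0.81 ± 0.10 without and 0.45 with the covariate. Nuclear genes of oxidative phosphorylation had 19 of 35 called above and 1 below (median 0.30), with 10 or 11 called above without double-knockdown replicate 1, Msi1 replicate 2 or 3, Msi2 replicate 2 or control replicate 1. With the covariate none was called above and 1 below, with a median of -0.04. The 13 mitochondrially encoded genes had none called (median -0.10), and 2 called above with the covariate (median 0.48).

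Cholesterol genes departed in both directions, with 9 of 24 called above and 3 below (8 below without Msi1 replicate 1), and 6 above and 1 below with the covariate. HMGCS1, an early enzyme of cholesterol synthesis, was measured at 86.9, 93.4 and 85.7 CPM in double-knockdown libraries, 58, 54.8 and 54.2 CPM in Msi1-knockdown libraries, 81.8, 78.8 and 85.1 CPM in Msi2-knockdown libraries and 83.5, 79.7 and 89.9 CPM in control libraries. The Msi1 knockdown was low, and the double knockdown stood at the level of control, a departure of 0.71 ± 0.09 (adjusted p = 1.41e-05) and of 0.50 with the covariate. IDI1, a later enzyme, departed by 0.92 ± 0.11. Of 14 fatty acid synthesis genes 2 were called above and 3 below (5 below without Msi1 replicate 1), and 2 above and 1 below with the covariate, with ACLY, which makes cytosolic acetyl-CoA, at 0.60 ± 0.09 and ELOVL5, a fatty acid elongase, at -0.75 ± 0.11.

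In other lists the counts moved with the trend or stood closer to the shares over all genes. Of 30 proteasome genes 20 were called above (median 0.29), but 7 to 11 when double-knockdown replicate 1, Msi1 replicate 2 or 3, Msi2 replicate 1 or 2 or control replicate 1 or 3 was left out, and none with the covariate (median -0.05). Translation factors had 18 of 34 called above (median 0.29), 10 without Msi1 replicate 2, 11 without Msi1 replicate 3 and 1 with the covariate. EIF5A, an elongation factor, stayed called at 0.37. Of 25 p53 targets 12 were called above and 3 below, with BTG2, an antiproliferative gene, at 0.72 ± 0.11 and TNFRSF10B, a death receptor for TRAIL, at -0.84 ± 0.11. With the covariate 1 p53 target was called above and 2 below, TNFRSF10B stayed called at -0.45, and BTG2 was not called, at 0.44 (adjusted p = 0.0565). Of 35 type I interferon response genes 11 were called above and 6 below, with IFIT1 at 0.77 ± 0.10 and IFIT3 at 0.68 ± 0.11. With the covariate 2 were called above and 1 below, IFIT1 stayed called at 0.55, and IFIT3 was not called, at 0.42 (adjusted p = 0.0736). Of 6 metallothionein genes 3 were called above and 1 below, and none above and 1 below with the covariate. In this list MT1X and MT1E, members of a family of similar copies, departed by 0.74 ± 0.13 and 0.59 ± 0.14 and neither was called with the covariate. Among 17 genes linked to Musashi in earlier work, 2 were called above, 4 below and 11 neither, with CCND1 (cyclin D1) at 0.64 ± 0.10 and TGFBR1, a TGF-beta receptor, at -0.59 ± 0.10. None of the Musashi-linked list was called with the covariate. In the membrane fusion list, 11 of 29 were called above and 4 below (7 above without control replicate 1), with NSF, the ATPase that takes SNARE complexes apart, at 38.8 ± 2.52 CPM in double-knockdown libraries, 28.7 ± 2.11 CPM in Msi1-knockdown libraries, 71.8 ± 3.92 CPM in Msi2-knockdown libraries and 86.5 ± 8.39 CPM in control libraries, a departure of 0.71 ± 0.11 and of 0.52 with the covariate. With the covariate 1 of the membrane fusion list was called above and none below (median -0.01).

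Further lists had mixed calls or shares nearer to those over all genes. Of 32 ribosome biogenesis and MYC target genes 9 were called above and 3 below, with 4 to 13 above when 1 library was left out. The counts above were 4 without Msi1 replicate 2 or 3, Msi2 replicate 2 or control replicate 1, and 5 without double-knockdown replicate 1 or 2, Msi2 replicate 1 or control replicate 3. With the covariate 1 was called above and none below. Of 35 splicing factors 14 were called above and 6 below, with 6 above without Msi1 replicate 2 or 3 and 9 without Msi2 replicate 2, and none either way with the covariate. Of 31 chromatin regulators 7 were called above and 7 below, and none above and 1 below with the covariate. The glycolysis and hypoxia list had 8 of 30 called above and 9 below (5 above without control replicate 1), and 3 below with the covariate. Apoptosis regulators had 6 of 27 called above and 3 below, against none above and 5 below with the covariate. The WNT list had 1 of 16 called above and 5 below, and none with the covariate. Epithelial genes had 5 of 21 called above and 5 below, and 1 above and 3 below with the covariate.

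Against control, 26.6% of the tested genes were called higher and 25.3% lower in the double knockdown, 18.5% and 20.9% in that of Msi1, and 16.7% and 13.6% in that of Msi2. Additivity itself could be bounded for some strongly changed genes. By a rule chosen after values were seen (an interval within 0.5 log2 of additivity, no call, a called change of at least 1 log2 in the double knockdown and called changes of the same direction in both single knockdowns, at 10 CPM or more), 33 genes qualified, 15 higher and 18 lower in the double knockdown than in control. Of all 720 genes called at 1 log2 or more in the double knockdown against control, 53 were bounded and not called as departing. CDKN1A, the cell cycle inhibitor p21, was measured at 24.9, 23.1 and 22.4 CPM in double-knockdown libraries, 15, 12.8 and 14 CPM in Msi1-knockdown libraries, 8.81, 8.24 and 9.47 CPM in Msi2-knockdown libraries and 5.41, 6.86 and 5.93 CPM in control libraries. The groups did not overlap, and the double knockdown was close to the additive level of 20.3 CPM, with a departure of 0.21 ± 0.13 (95% interval -0.07 to 0.50). With the trend as covariate CDKN1A was at -0.01. DUSP1, a phosphatase that switches off MAP kinases, was measured at 65.2, 61.6 and 57.6 CPM in double-knockdown libraries, 47.4, 40.3 and 43 CPM in Msi1-knockdown libraries, 37.9, 32.9 and 37.9 CPM in Msi2-knockdown libraries and 21.9, 25.1 and 21.8 CPM in control libraries. Its departure was -0.16 ± 0.11 (95% interval -0.39 to 0.08), and -0.40 with the covariate. Of the 33 genes 11 were called with the covariate, 4 above and 7 below additivity, among them ANTXR1 (anthrax toxin receptor 1) at 0.59, RASL11A (a small GTPase) at -0.54 and MZT1 (of the gamma-tubulin complex) at -0.68, against 0.08, -0.11 and -0.21 without it.

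Departures varied with transcript length and level. In the fifth of genes with the shortest longest transcript 30.3% were called above and 10.7% below additivity, and in the fifth with the longest 11.9% were called above and 28.2% below. Across 14913 genes, which are not independent replicates, Spearman's rho of the departure with transcript length was -0.183, with GC percent -0.0143, and with mean CPM 0.218 across 15021 genes. The sign of the relation with length turned to 0.0232 with the trend as covariate. Removing a per-library smooth of level on length left 6105 genes called, 3284 above and 2821 below. In the fifth of genes with the lowest level 9.52% were called at least 1 log2 below additivity and 2.06% at least 1 log2 above, against 1.23% and 0.0333% in the fifth with the highest level.

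**Figure D5:**
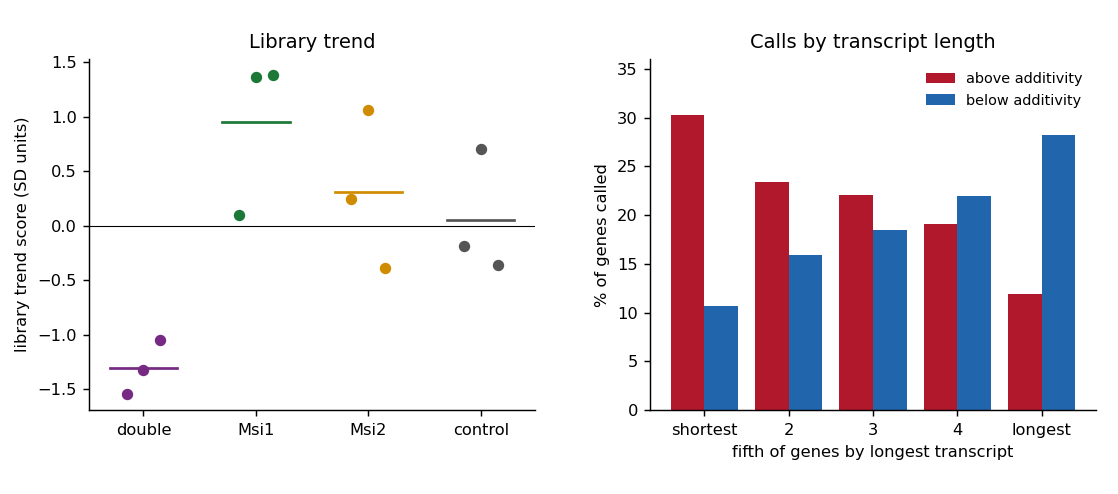
Left, library trend score of each library (points) and group mean (bars). The double-knockdown libraries lie between -1.54 and -1.05, below all others. Right, share of genes called above (red) and below (blue) additivity in 5 classes of transcript length, where calls above make up 11.9% of the longest class and 30.3% of the shortest, and calls below 28.2% and 10.7%.

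Markers of other cell types were checked in all groups. MIA PaCa-2 is a poorly differentiated line, and control cells had 5868 ± 21.4 CPM of VIM (vimentin), 1187 ± 30.9 of KRT8 and 1179 ± 63.7 of KRT18 (simple epithelial keratins) and 0.613 ± 0.201 of CDH1 (E-cadherin; SD, n = 3). Acinar enzyme genes PRSS1, CPA1, CELA3A and AMY2A averaged at most 0.0363 CPM in any group. Fibroblast markers summed to 549 to 642 CPM in double-knockdown libraries, 660 to 804 in those of Msi1, 776 to 887 in those of Msi2 and 603 to 739 in control, nearly all from COL1A2 and COL3A1, while the other 8 averaged at most 1.61 CPM and FAP was at 0 in control. Of 7 fibroblast markers tested only COL3A1 was called, below additivity at -1.1 ± 0.13. Endothelial markers summed to 36.9 to 38.7 CPM in double-knockdown libraries, 47.1 to 55.3 in those of Msi1, 35 to 35.9 in those of Msi2 and 31.2 to 31.6 in control, from CDH5 and EMCN, and of 4 tested only CDH5 was called, at -1.52 ± 0.13. Blood markers summed to 48 to 52.2 CPM in double-knockdown libraries, 36.6 to 43.5 in those of Msi1, 46.9 to 47.5 in those of Msi2 and 17 to 20 in control. They came mostly from the lysosomal protein gene CD68, the only one of 4 tested that was called, at -1.1 ± 0.10, while CD3E was at 0 in every group. Pancreatic acinar and ductal markers summed to 258 to 265 CPM in double-knockdown libraries, 278 to 298 in those of Msi1, 218 to 231 in those of Msi2 and 264 to 276 in control, with KRT19 and SOX9 called above and MUC1 below additivity. Only 1 of this list was called above in 4 of the 12 fits that left out 1 library. With the trend as covariate none was called above, and MUC1 stayed called below. Neuronal genes of virus packaging cells summed to at most 0.302 CPM in any library, with INA at 0, and none passed the filter. In bulk samples fewer cells of a type and less RNA per cell cannot be told apart.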

How the data were processed

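RNA of 12 libraries of sorted MIA PaCa-2 cells was sequenced. The authors deposited estimated counts for each gene as whole numbers, which were neither scaled nor rounded further. The submitters' processing notes list kallisto 0.42.1, CASAVA 1.4 and hg19 but no role for any of them. Which transcripts were used, and how they were summed to genes, is not given in the sources used here. Reads that fit several transcripts are shared out by kallisto, which sets how counts divide among near-identical genes. Groups came from the sample titles.

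Counts were fitted with edgeR 4.0.16 in R 4.3.3, with TMM scaling, filterByExpr (minimum count 10), 1 mean per group over all 12 libraries, a robust quasi-likelihood fit and 8 residual degrees of freedom. The contrast was double knockdown minus Msi1 knockdown minus Msi2 knockdown plus control, tested in both directions, with Benjamini-Hochberg adjustment over 15021 genes at 0.05. Standard errors came from the fitted weights. With 3 libraries per group, single genes rest on the model across all genes. A permutation test of 3 libraries against 3 cannot go below p = 0.1, but that floor is for a comparison of single groups. It does not apply to the contrast tested here, for which no permutation was run. The gene weights of the library trend were the first component of deviations from group means, over genes above 3 log2 CPM with 2 counts added. The score of each library, used as the covariate, was its level on these weights after centring each gene on all 12 libraries. Differences between groups therefore stayed in the score. DESeq2 1.42.0 and other settings were alternatives. Transcript lengths and GC percent were of the longest GENCODE 29 transcript.

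Named genes were MSI1, MSI2, the 12 highest and 12 lowest departures that were called in the main fit and in every fit with 1 library left out, at 10 CPM or more in the highest group, and up to 3 members of each list with the smallest p. Genes named outside that rule are 5 additive genes, C1S and the markers used to check the cell line. All 945 entries of the 41 lists (36 of pathways, 5 of cell type markers) matched the table. Some genes that the rule names are not reported here. The contrast, lists and rules were chosen with earlier results of these data known. The scripts were tested on simulated counts, drawn independently around group means. These held no library trend, so that test does not cover the effect of the trend on the calls. The labels state no pairing by replicate number, and the main fit used none. Correlations of deviations ran from -0.538 to 0.695 (median 0.156) over the 18 pairs of libraries with the same number. Over the 36 pairs with different numbers they ran from -0.813 to 0.704 (median -0.101). These overlapping ranges do not settle whether replicates were paired.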

Additional observations from a re-analysis of the deposited data

Results flagged for a closer look

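The difference between the Msi2 shRNA's effect in cells with the Msi1 shRNA and its effect in cells without it is the departure itself, and a test of that difference called 6058 genes. The library trend moves with this contrast, and 648 genes were called with the trend as a covariate. The part of the trend in the other calls was not tested.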

How the results depend on the processing

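With the library trend as covariate 648 genes departed (206 above and 442 below additivity), of which 77 by at least 1 log2 (25 above, 52 below). With a replicate block and the trend there were 428 (148 above, 280 below), of which 65 by at least 1 log2 (28 above, 37 below). The design cannot tell the trend from the double knockdown. The replicate block alone gave 6546 calls. Of 12 libraries, 7 correlated best with a library of their own number, where 18 pairs shared a number and 36 did not. The best partners are not independent of each other, so this count does not settle whether replicates were paired. A stricter filter (5 CPM) lowered the count at 1 log2 to 239 (24 above, 215 below), with fewer genes tested. Size factors in place of TMM, DESeq2, no filter, thinned libraries, a length correction and a fit that was not robust gave 4629 to 6105 calls. Leaving out 1 library gave 4379 to 7090 calls (2138 to 3748 above, 2194 to 3342 below), 394 to 889 at 1 log2 (74 to 147 above, 310 to 742 below) and 4764 to 6080 genes bounded within 0.5 log2.

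The rho with transcript length was -0.066 with no filter, -0.304 with the stricter filter, -0.229 in thinned libraries, -0.0305 after length correction, 0.0232 with the trend and 0.0319 with block and trend, and -0.196 to -0.142 with 1 library left out. MSI1 was -0.54 with the stricter filter and -0.52 with the block, both past the threshold, but -0.17 with block and trend (adjusted p = 0.880) and -0.76 in thinned libraries (adjusted p = 0.0584), and -0.65 to -0.40 with 1 library left out. MSI2 was 0.54 with the trend and 0.36 after length correction, both past it, but 0.50 with block and trend (adjusted p = 0.198) and 0.14 in thinned libraries (adjusted p = 0.479), and 0.15 to 0.37 with 1 library left out. CDKN1A turned to -0.0139 with the trend and -0.00844 with block and trend. ANTXR1 turned to -0.12 in thinned libraries, and to -0.0213 and -0.0111 without Msi1 replicate 1 and control replicate 2, with a range of -0.021 to 0.14 when 1 library was left out. For each of these changes the cause was not tested. Depth limits the genes with few counts: control replicate 3 had 10.95 in units of 1e6.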
